A study of Mus musculus with 4 samples.

Results

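The genes of the cytosolic ribosomal proteins were followed through 4 single-cell libraries of the mouse left ventricle. A gene was taken as a member when its symbol was Rps or Rpl with a number, or Rpsa, Rplp0, Rplp1 or Rplp2, when it was no pseudogene, and when it had at least 100 UMIs (unique molecular identifiers, each marking 1 captured mRNA molecule) over the 4 libraries. Of 32285 genes in the feature table, 83 had such a symbol and 81 were members, 32 of the small subunit and 49 of the large subunit. The other two were Rpl39l, with 50 UMIs, and Rpl10l, with 0 UMIs in 4 libraries. Both are paralogs known from the testis. The member with the fewest UMIs, Rpl7l1, had 5467. For comparison, 14491 genes of all kinds had at least 100 UMIs.

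The eukaryotic ribosome is built from a small subunit, which reads the mRNA, and a large subunit, which joins amino acids, and each ribosomal protein is needed in about equal number per ribosome. Their mRNAs are among the most abundant of any cell and most begin with a run of C and T bases, the 5′ TOP tract (terminal oligopyrimidine), through which the kinase complex mTORC1 and the protein Larp1 set their translation and stability together. The heart is known for a pair of paralogs, Rpl3, found in all tissues, and Rpl3l, made in striated muscle.

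The samples were left ventricles of male C57BL/6J wild-type mice, young at 3 to 5 months or aged at 24 to 26 months. The I/R animals had the left anterior descending coronary artery tied for 45 min and 24 h of reperfusion. The comparison animals were sham operated according to the study, and were labelled healthy. No other treatment or allele is named for any group, and how many animals went into a library is not given in the sources used here. The 4 groups (sham or I/R, in young or aged mice) are 1 library each, so no difference below has a replicate check. Fold changes carry 95% intervals that cover counting error only, and no p-value was computed.

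The libraries held 92200 to 102883 barcodes and 25836175 (young sham) to 66767829 (aged I/R) UMIs, with a median of 244 to 675 UMIs per barcode. Pairs of libraries shared 2366 to 2843 barcode sequences. The labels name nuclear RNA as the molecule while the study describes single cells. Cardiomyocyte markers had UMIs in each library (18 of 18 genes), and so did those of the other labelled cell types, with sums of 2688 to 3152 CPM for endothelial, 1382 to 2352 CPM for fibroblast and 615 to 1008 CPM for macrophage markers. Of 8 neutrophil markers, 7 had UMIs in every library. Levels are counts of UMIs scaled to the same total in each library (CPM, where 10000 CPM is 1% of a library) over all barcodes. Since a 3′ tag library counts 1 tag per mRNA whatever its length, CPM was not divided by length. A sum over barcodes cannot tell fewer cells of a type from less RNA per cell.

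The start sites of 6 of the members named in the results below are printed, because the TOP tract sits there. Of the 81 members, 61 had an entry in the RefSeq promoter table (GRCm38.p6), Rpl3 and Rplp1 not among them. Where a gene had several entries, the one with the longest run was taken, for members and other genes alike. The shares with a run given below are therefore upper values. Each line runs from 40 bases before to 20 bases after the annotated start, with the longest unbroken run of C and T that touches the 10 bases on either side of the start in capitals.
Rpl4, chr9:64173347-64173406, plus strand: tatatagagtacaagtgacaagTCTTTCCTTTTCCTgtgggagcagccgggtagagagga
Rps15a, chr7:118116128-118116187, minus strand: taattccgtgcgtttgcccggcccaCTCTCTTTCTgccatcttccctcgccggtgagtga
Rpl38, chr11:114668540-114668599, plus strand: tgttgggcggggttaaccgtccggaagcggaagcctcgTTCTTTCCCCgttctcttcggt
Rplp2, chr7:141447611-141447670, plus strand: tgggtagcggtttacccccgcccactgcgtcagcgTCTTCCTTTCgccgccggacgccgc
Rpl41, chr10:128549149-128549208, minus strand: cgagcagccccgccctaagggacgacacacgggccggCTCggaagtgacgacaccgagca
Rpl3l, chr17:24727786-24727845, plus strand: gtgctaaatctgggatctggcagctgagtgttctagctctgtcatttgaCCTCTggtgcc
Rpl4 and Rps15a, printed first, lay near opposite ends of the aged I/R comparison although both have a run of at least 10 bases (14 and 10). In both the run begins (at -18 and -15) and ends before the annotated start. Rpl38 and Rplp2 also have runs of 10 bases. In Rpl41 and Rpl3l the run is 3 and 5 bases long. A run of at least 8 bases on the gene's own strand was found in 29 of 61 members (47.5%) and in 15.7% of the 26964 other genes with an entry. The annotated start can lie some bases from the one in use, so a short run says only that these letters are not in this window. For the same reason, whether a run before the annotated start is part of the mRNA cannot be told from these letters. For the 29 members with such a run and the 32 without, the medians of the change after I/R (log2) were 0.41 and 0.40 in young and -0.30 and -0.17 in aged.

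As a family, the ribosomal protein mRNAs were lowest in young sham and, as CPM, highest in aged sham, whereas with size factors (a scaling in which the typical gene does not differ between libraries) young I/R exceeded aged sham, at 0.92 and 0.69 over young sham on the log2 scale. In the young they took 2.19% of all UMIs after sham and 2.97% after I/R (21949.7 and 29693 CPM), in the aged 3.21% after sham and 2.69% after I/R (32094 and 26878 CPM). The libraries did not overlap in their counting intervals, the widest of which ran from 21893 to 22007 CPM. The family was thus higher after I/R in young and lower after I/R in aged, by 0.44 (0.43 to 0.44) and -0.26 (-0.26 to -0.25) on the log2 scale. Small- and large-subunit members followed the same order, with 9561 and 12873 CPM in the young and 14288 and 11762 CPM in the aged for the small subunit, and 12388.5 and 16820.0 CPM in the young and 17807 and 15116 CPM in the aged for the large subunit.

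Single members spanned a wide range of levels. Rps29, a small zinc-binding protein of the 40S subunit, had the highest mean and was measured at 864.6 and 1051 CPM in the young (sham, then I/R) and at 1065 and 865.0 CPM in the aged. All values listed by library below keep this order. Next came Rpsa, also called the laminin receptor, with 504.3, 827, 868 and 895 CPM, and the stalk protein Rplp1 with 590.4, 899.5, 1023 and 556 CPM. The 3 lowest were paralogs, Rpl7l1 (27.1, 35.5, 28.3 and 32.8 CPM), Rpl22l1 (39.8, 49.8, 51.1 and 41.2 CPM) and Rps27l (62.1, 91.6, 94.6 and 54.1 CPM). The plot of members by library shows that most of them moved together from young sham to aged sham and spread out in aged I/R.

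**Figure D1:**
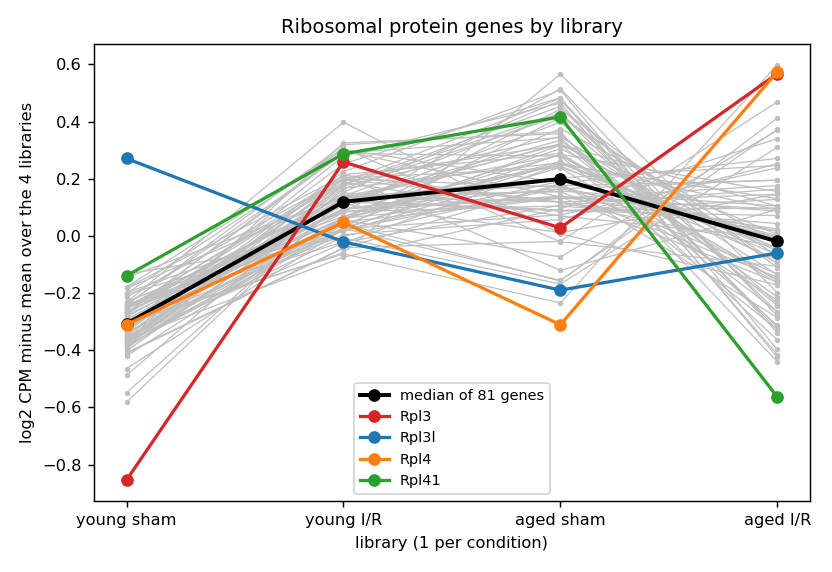
Level of each of the 81 ribosomal protein genes (grey) in the 4 libraries, as log2 CPM minus that gene's mean, with the median in black and 4 genes in colour. The median is -0.31 for young sham, 0.20 for aged sham and -0.02 for aged I/R. Among the 4 coloured genes, Rpl3 and Rpl4 lie highest and Rpl41 lowest in aged I/R. Rpl3l has its highest level in young sham on this CPM scale, though not with size factors, which put its young I/R level 0.19 above that.

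The first comparison asked what I/R did in young ventricles. Of the 81 members, 80 lay above their sham level with an interval that left out 0, and Rpl3l alone lay below it, at -0.29, which became 0.19 with size factors. The median difference was 0.41 on the log2 scale, against -0.50 over all 14491 genes, of which 15.1% were higher and 63.1% lower by the same measure. The spread was narrow, with the middle 50% of members between 0.36 and 0.53. Past 1.5-fold, 7 members were higher (8.64%, against 5.76% of all genes) and 0 lower (against 45.2% of all genes). The 7 were Rpl3 (1.11), Rpsa (0.71), Rpl38 (0.69), Rpl13a (0.67), Rps27a (0.65), Rpl27 (0.63) and Rplp1 (0.61). Rpl38 is known for its part in the translation of Hox mRNAs, Rpl13a for a role outside the ribosome in the interferon response, and Rps27a is made fused to ubiquitin. At the other end, after Rpl3l, was Rps2 (0.13). The count past 1.5-fold rested on the scaling, since size factors, which raised the ratio of a typical gene by 0.49, gave 80 members in place of 7, and barcodes with at least 500 UMIs gave 79. Over all genes the median was -0.01 and -0.45 under these settings, and the share of all genes past 1.5-fold is not given for them.

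In aged ventricles the members split. With aged I/R over aged sham, 57 of 81 were lower and 21 higher with intervals that left out 0, against 27.3% and 41.3% of all genes. The median was -0.20, against 0.09 over all genes, and the middle 50% of members ran from -0.48 to 0.03, a spread of 0.51 against 0.17 in young. Past 1.5-fold, 16 members were lower (19.8%, against 7.97% of all genes) and 2 higher (2.47%, against 15.0%). The lowest were Rpl41 (-0.98), Rps15a (-0.91) and Rpl37a (-0.91). Others past 1.5-fold were Rplp1 (-0.88), Rps15 (-0.82), Rps27l (-0.80), Rpl30 (-0.79), Rpl35a (-0.78), Rps20 (-0.76), Rps21 (-0.75), Rpl39 (-0.74), Rpl36 (-0.71), Rpl38 (-0.67), Rps14 (-0.64) and Rpl37 (-0.61). The 16 came from both subunits, 7 from the small and 9 from the large one. The highest were Rpl4 (0.89), Rpl6 (0.83) and Rplp0 (0.57), all large-subunit proteins. With barcodes of at least 500 UMIs, 10 were lower and 6 higher, where the median over all genes was 0.06 and their share past the fold is not given.

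The I/R response thus differed in direction between the ages for most members, as a description without a test. Of 81 members, 57 (70.4%) were higher in young and lower in aged with both intervals leaving out 0, against 6.13% of all genes. The aged response minus the young one had a median of -0.63 and was below 0 in 73 members, against 26.3% of all genes and an all-gene median of 0.59. The median was -1.22 with size factors and -0.94 with at least 500 UMIs. The 76 nuclear-encoded subunits of the respiratory chain had a like median, -0.59, with 70 below 0. The 4 libraries differed in other ways that moved with these values. Malat1, a long noncoding RNA that stays in the nucleus, was measured at 73437, 22223, 28796 and 43300 CPM, so its order from high to low ran against that of the members, except that young I/R and aged sham changed places in these CPM values. Transcripts of the mitochondrial genome summed to 99990.2, 140511, 155637 and 99835 CPM, high in the same 2 libraries as the members. Gm42418, a transcript that overlaps ribosomal RNA, took 11.5%, 19.4%, 14.0% and 13.8% of UMIs. Cardiomyocyte markers (18 genes) summed to 106905, 94933, 101210 and 118766 CPM, lower after I/R in young and higher in aged, the opposite of the members, and so in 9 of 9 groups of barcodes (described below). Neutrophil markers (8 genes) summed to 14.8, 109, 24.98 and 105 CPM, and erythroid markers (8 genes) to 2570.1, 1959, 1693 and 1027 CPM. The part of all these in the result was not tested. Without Gm42418, Malat1 and the mitochondrial transcripts in the total, the family's differences were 0.58 in young and -0.35 in aged.

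Comparing the sham libraries showed the largest shift of the family with age. In aged sham, 77 of 81 members were higher than in young sham with an interval above 0, and 2 were lower. The median was 0.52 against -0.14 over all genes, of which 21.7% were higher and 42.7% lower by interval. Past 1.5-fold, 31 members were higher (38.3%, against 7.81% of all genes) and 0 lower (against 18.3%). The 31 became 54 with size factors, 53 in barcodes with at least 200 genes and 74 in those with at least 500 UMIs. The median over all genes was 0.01, -0.15 and -0.09 under these settings, and the share of all genes past the fold is not given for them. Rps27a (0.91), Rpl3 (0.88) and Rps20 (0.87) led. Rpl3l (-0.46), Rps2 (-0.03, though 0.11 with size factors) and Rpl4 (-0.00) were lowest. The median was 0.61 for small-subunit and 0.49 for large-subunit members. This comparison shares the young sham library with the first one. That library was the shallowest, and its family level depended on the choice of barcodes, from 21949.7 CPM over all to 19518 CPM in barcodes with at least 200 genes and 15991 CPM in those with at least 500 UMIs, where Malat1 stood at 131181 CPM. In aged I/R the same choices gave 26878, 26883 and 26813 CPM. With at least 500 UMIs the family's difference between the sham libraries was 0.90 in place of 0.55, and 0.83 in place of 0.44 between young I/R and young sham.

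Between the I/R libraries the order was turned. With aged I/R over young I/R, 50 of 81 members were lower and 22 higher with intervals that left out 0, and the median was -0.11 against 0.45 over all genes, of which 13.8% were lower and 66.1% higher by interval. Past 1.5-fold, 9 members were lower (11.1%, against 3.38% of all genes) and 1 higher (1.23%, against 40.9%). The 1 was Rpl6 (0.66), followed by Rpl4 (0.53) and Rpl5 (0.51), and the lowest were Rpl41 (-0.85), Rps27l (-0.76) and Rplp1 (-0.69). With size factors 37 members were lower past 1.5-fold and 0 higher. The median over all genes was then 0.0035, and their share past the fold is not given.

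The differences among members in aged I/R went with the length of the protein they encode. This relation was noticed in the values and not fixed beforehand. It rests on the single aged I/R library, and its cause was not tested. The RNA integrity and fragment length of the libraries are not given in the sources used here. Coding lengths in the GENCODE M21 annotation ran from 75 bases (Rpl41) to 1257 bases (Rpl4), with a median of 456. Across the 81 members, Spearman's rank correlation of coding length with the log2 ratio was 0.77 for aged I/R over aged sham and 0.81 for aged I/R over young I/R. It was -0.22 for young I/R over young sham and -0.28 for aged sham over young sham. The points share libraries and genes are not independent replicates, so these values are descriptions. With the annotated mRNA length in place of coding length the first pair was 0.47 and 0.55. A change of scaling moves all members by 1 amount and left the rank correlation at 0.77, as did leaving out shallow barcodes, and without the 14 members that share over 10% of their 3′ sequence with other genes it was 0.78 over 67 members.

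Grouped by coding length, the 10 members under 300 bases summed to 3790, 5226, 5590.1 and 3632 CPM. The 28 members from 300 to under 450 bases summed to 7474, 10216, 11479 and 8113 CPM, and the 19 from 450 to under 600 bases to 4603, 6147, 6734 and 5733 CPM. Up to that length aged I/R lay below both young I/R and aged sham. The 24 members of 600 bases and over summed to 6082, 8104, 8292 and 9401 CPM, with aged I/R highest of the 4 libraries as CPM, though below young I/R by size factors (-0.23 on the log2 scale). For aged I/R over aged sham the 4 sums differed by -0.62, -0.50, -0.23 and 0.18 on the log2 scale from shortest to longest, each with an interval no wider than 0.02. The same sums for young I/R over young sham differed by 0.46, 0.45, 0.42 and 0.41. For aged I/R over young I/R they were -0.52, -0.33, -0.10 and 0.21, the last of which was -0.23 with size factors. Of 38 members under 450 bases, 37 were lower in aged I/R than in aged sham, 14 of them past 1.5-fold. Of 920 protein-coding genes of that length, 70.7% were lower and 22.3% lower past 1.5-fold. The exception was Rpl35 (0.19), whose 3′ end shares 96.3% of its words with Gm2000, which makes its count uncertain. Of 24 members of 600 bases and over, 17 were higher and 0 lower past 1.5-fold. Of 11483 protein-coding genes of that length, 59.7% were higher, against 70.8% of the long members, and 6.63% lower past 1.5-fold. The median of the long members was 0.11, or 0.0084 with size factors. The 24 long members ran from Rpl13a (-0.22) to Rpl4 (0.89), and Rpl7a, with 798 coding bases, lay at 0.53. The bins of 10 and 19 members are thin.

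**Figure D2:**
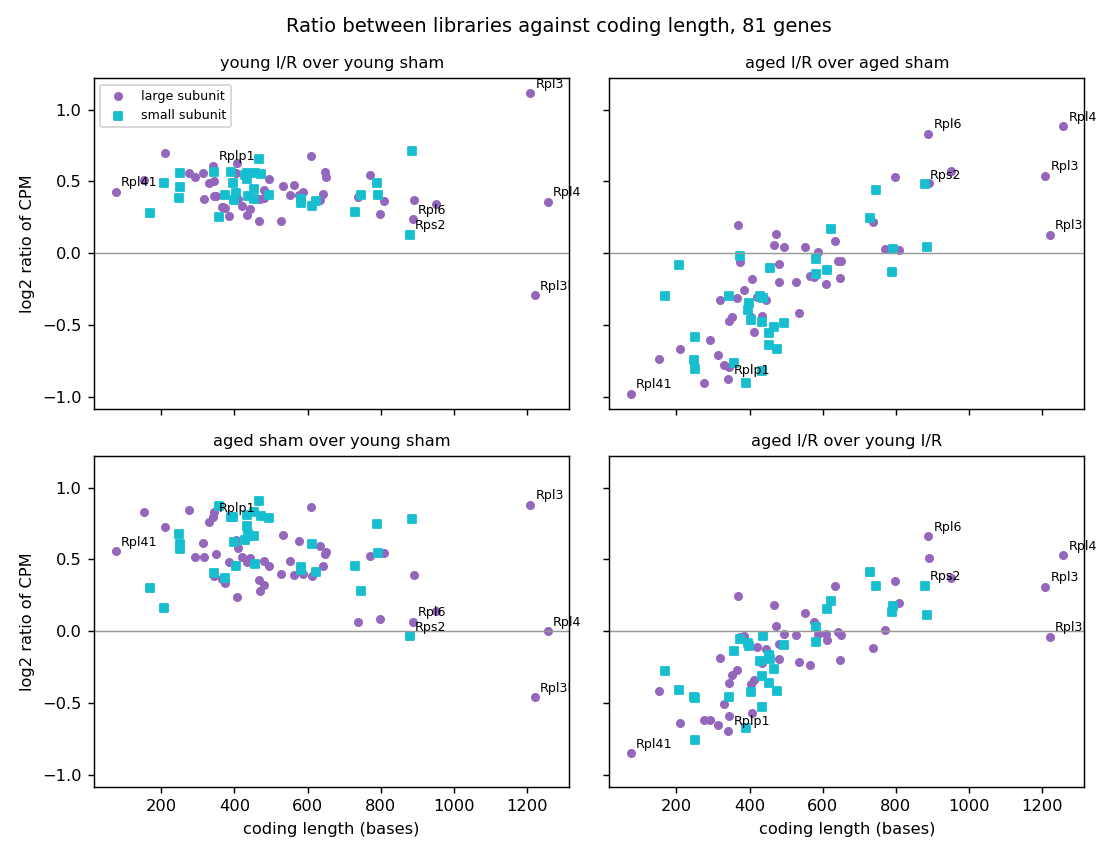
Log2 ratio of CPM between libraries (vertical axis) against coding length in bases (horizontal axis) for the 81 ribosomal protein genes, 1 panel per comparison, with circles for large- and squares for small-subunit genes. Points lie along a rising band in both panels that contain aged I/R (Spearman 0.77 and 0.81). In the other panels they lie in a slightly falling band (-0.22 and -0.28), mostly above 0. Rpl3l lies below 0 there, although it was above 0 in young I/R with size factors. Between the sham libraries Rps2 and Rpl4 lie just below 0 as well.

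The single genes show the range. Rpl41, which encodes the shortest ribosomal protein, was measured at 536.0, 720.6, 788.0 and 399.6 CPM. It was lower in aged I/R than in either young I/R or aged sham. Its last 300 bases share 74.1% of their 31-base words with Gm10076, so its count is uncertain, and Gm10076 itself was measured at 69.3, 109.4, 133.7 and 70.6 CPM. Rpl37a, a zinc-finger protein of the 60S subunit, was measured at 359.9, 531.0, 647.1 and 345.1 CPM. Rps15a of the 40S subunit had 209.0, 308.7, 362.3 and 193.1 CPM. Rpl39, which lines the exit tunnel, was measured at 145.3, 207.3, 258.7 and 155.0 CPM. In these 4 genes aged I/R lay below both of those libraries.

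Among the long members, Rpl4 was measured at 170.3, 218.2, 170.3 and 314.5 CPM. Its sham libraries did not differ beyond counting error as CPM (-0.00, -0.06 to 0.05), a ratio that size factors shift by 0.14. Aged I/R was the highest. Rpl6 had 299.9, 353.7, 314.0 and 559.4 CPM. Rps2, a core protein of the 40S subunit, had 474.3, 517.9, 463.1 and 645.3 CPM. In these 3 genes the I/R library exceeded the sham library at both ages. With size factors Rps2 differed by -0.13 between aged I/R and young I/R in place of 0.32, where Rpl4 and Rpl6 stayed above.

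Rpl3 and Rpl3l, which take the same place near the peptidyl transferase centre, changed their order between libraries. Rpl3 was measured at 78.6, 169.9, 144.9 and 210.5 CPM and Rpl3l at 182.6, 149.2, 132.7 and 145.2 CPM. The ratio of Rpl3 to Rpl3l was 0.43 and 1.14 in the young and 1.09 and 1.45 in the aged, and Rpl3l exceeded its paralog in the first of these alone. This ratio does not depend on the scaling, but the part of the mix of cells and barcodes in it was not tested. Rpl3 was higher after I/R at both ages, by 1.11 (1.04 to 1.18) in young and 0.54 (0.50 to 0.58) in aged. Rpl3l differed by -0.29 (-0.35 to -0.24) in young, which became 0.19 with size factors, and by 0.13 (0.08 to 0.18) in aged. Both mRNAs have nearly the same annotated length, 1351 and 1375 bases, and their last 300 bases share no 31-base word with another gene.

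**Figure D3:**
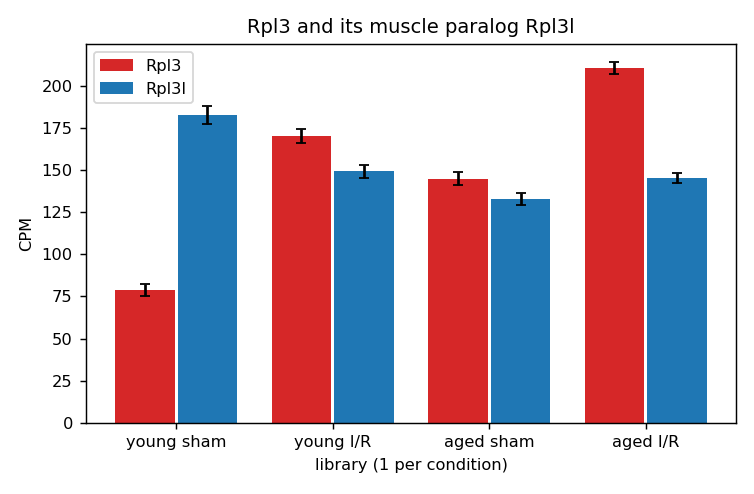
CPM of Rpl3 (red) and its muscle paralog Rpl3l (blue) in the 4 libraries, with bars from 0 and whiskers for the exact Poisson 95% interval of the count. Rpl3l is the taller bar in young sham (182.6 against 78.6 CPM) and the shorter one in the other libraries.

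The other paralog pairs kept their order in the 4 libraries, the paralog with the l in its name being the lower one. Rpl22, known for a role in T-cell development, was measured at 127.6, 152.3, 177.9 and 148.9 CPM and Rpl22l1 at 39.8, 49.8, 51.1 and 41.2 CPM. Both were lower in aged I/R than in aged sham, by log2 values of -0.26 and -0.31. Rps27 had 326.3, 447.9, 485.6 and 323.8 CPM and its p53-responsive paralog Rps27l 62.1, 91.6, 94.6 and 54.1 CPM, lower in aged I/R by -0.58 and -0.80 on that scale. All of the last 300 bases of Rps27 recur in Rps27rt, so its count is uncertain. Rpl7 had 232.2, 299.2, 338.5 and 342.9 CPM. As CPM it did not differ between aged I/R and aged sham beyond counting error (0.02, -0.01 to 0.05), but size factors shift this ratio by -0.10. Rpl7l1, a nucleolar assembly factor, was 0.21 (0.11 to 0.32) higher in that comparison. Rpl10, which completes the 60S subunit, had 117.9, 156.9, 161.9 and 156.2 CPM, and its 3′ end recurs whole in the pseudogene Rpl10-ps3. Rps4x had 218.2, 306.0, 366.9 and 335.0 CPM. Rpl7l1 and Rps4x share 19.3% and 16.3% of their 3′ words with other genes, and Rplp2 over 10%, so their counts are uncertain too.

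The ribosomal stalk, which recruits the elongation factors, is made of Rplp0, Rplp1 and Rplp2 on a base with Rpl12. Its long and short proteins parted in aged I/R. Rplp0, with 951 coding bases, had 322.6, 408.3, 355.1 and 527.4 CPM and was highest in aged I/R, although aged I/R over young I/R was -0.07 with size factors. Rplp1 and Rplp2, with 342 and 345, were lower there than in young I/R and aged sham, as Rplp2 had 467.2, 662.7, 611.0 and 440.7 CPM. Rpl12 had 152.1, 217.4, 207.9 and 213.9 CPM. For aged I/R over aged sham these genes differed by 0.57 (Rplp0), -0.88 (Rplp1), -0.47 (Rplp2) and 0.04 (Rpl12, -0.06 with size factors). In young the 4 were higher after I/R by 0.34 to 0.61.

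Rpl5 and Rpl11 bind the 5S rRNA and together restrain Mdm2, the inhibitor of p53. They too parted. Rpl5 was measured at 239.9, 309.4, 314.2 and 440.6 CPM, and Rpl11 at 215.6, 298.1, 342.8 and 256.6 CPM. For aged I/R over aged sham the values were 0.49 (0.46 to 0.52) and -0.42 (-0.45 to -0.39). In young they were 0.37 and 0.47, both higher after I/R.

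Rps6, the substrate of S6 kinase, had 168.9, 223.9, 204.7 and 278.2 CPM and was higher after I/R by 0.41 in young and 0.44 in aged. Rps19, the gene most often mutated in Diamond-Blackfan anaemia, had 229.4, 338.3, 381.4 and 272.9 CPM. Rps25, used by viral internal ribosome entry sites, had 220.3, 292.1, 284.9 and 281.5 CPM. Its aged libraries did not differ beyond counting error as CPM (-0.02, -0.05 to 0.02), but size factors shift this ratio by -0.10. Rpl13a had 348.0, 555.3, 635.0 and 546.8 CPM, Rpl38 501.2, 811.3, 829.5 and 521.2 CPM and Rps27a 260.4, 409.3, 488.5 and 341.4 CPM. Of these, Rps6 alone was highest in aged I/R as CPM, with aged I/R over young I/R at 0.31, or -0.13 with size factors. Rps20 had 252.9, 300.4, 463.2 and 272.6 CPM, which put aged I/R over aged sham at -0.76 on the log2 scale.

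Some genes of the ribosome carry other names and were no members. Fau, which encodes Rps30 fused to a ubiquitin-like protein, was measured at 330.0, 436.4, 597.3 and 383.2 CPM. Rack1, a scaffold bound to the 40S subunit, had 208.3, 303.2, 261.0 and 307.0 CPM.

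The other parts of the translation machinery did not all follow the ribosomal proteins taken as 1 family. Within that family, the 24 members of 600 coding bases and over had a median of 0.11 for aged I/R over aged sham. With size factors it was 0.0084, and members under 450 bases were mostly lower. Coding length was not matched between the lists below, and its part in their differences was not tested. Of 8 elongation factors, 7 in young and 6 in aged were higher after I/R with intervals above 0, against 15.1% and 41.3% of all genes, with medians of 0.30 and 0.18 (all genes -0.50 and 0.09). Eef1a1, which brings aminoacyl-tRNA to the ribosome, was measured at 183.1, 334.7, 332.3 and 346.2 CPM, and Eef2, the translocase, at 428.4, 595.5, 571.7 and 635.5 CPM. A list of 20 other mRNAs known to carry a TOP tract, which holds 4 of these elongation factors and 3 genes of the ribosome itself (Fau and Rack1 among them), had medians of 0.36 and 0.17, with 19 and 15 higher. For 29 initiation factors they were 0.26 and 0.16, with 22 and 18 higher. In aged these medians were 0.08, 0.07 and 0.06 with size factors, and the summed CPM of the elongation factors and of the TOP list turned from 0.07 and 0.05 to -0.03 and -0.05.

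Ribosome biogenesis factors, which process rRNA and assemble subunits in the nucleolus, were mostly higher after I/R at both ages. Of 36 on the list, 30 were higher in young I/R and 28 in aged I/R with intervals above 0, against 15.1% and 41.3% of all genes. The medians were 0.46 and 0.57, or 0.95 and 0.47 with size factors. Past 1.5-fold, 13 were higher and 0 lower in young, and 17 higher and 1 lower in aged. Of all genes, 5.76% in young and 15.0% in aged were higher, and 45.2% and 7.97% lower. Ncl, nucleolin, was measured at 207.5, 293.4, 185.9 and 424.5 CPM. Npm1, nucleophosmin, had 86.5, 142.1, 108.5 and 164.0 CPM. Ddx21, an RNA helicase, had 38.2, 64.0, 33.4 and 84.6 CPM. The 1 lower gene was the short H/ACA snoRNP protein Nop10, with 43.6, 54.2, 48.0 and 26.4 CPM. These genes were named after their values were seen.

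For 20 subunits and factors of RNA polymerase I, which transcribes rRNA, the medians were 0.09 and -0.02, or 0.58 and -0.12 with size factors. For 27 genes of the mTORC1 pathway they were -0.32, which became 0.17 with size factors, and 0.02, which became -0.08. Ddit4, an inhibitor of mTORC1 induced by stress, had 6.7, 32.2, 7.1 and 13.9 CPM, and Larp1 had 84.7, 76.3, 64.0 and 96.5 CPM.

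**Figure D4:**
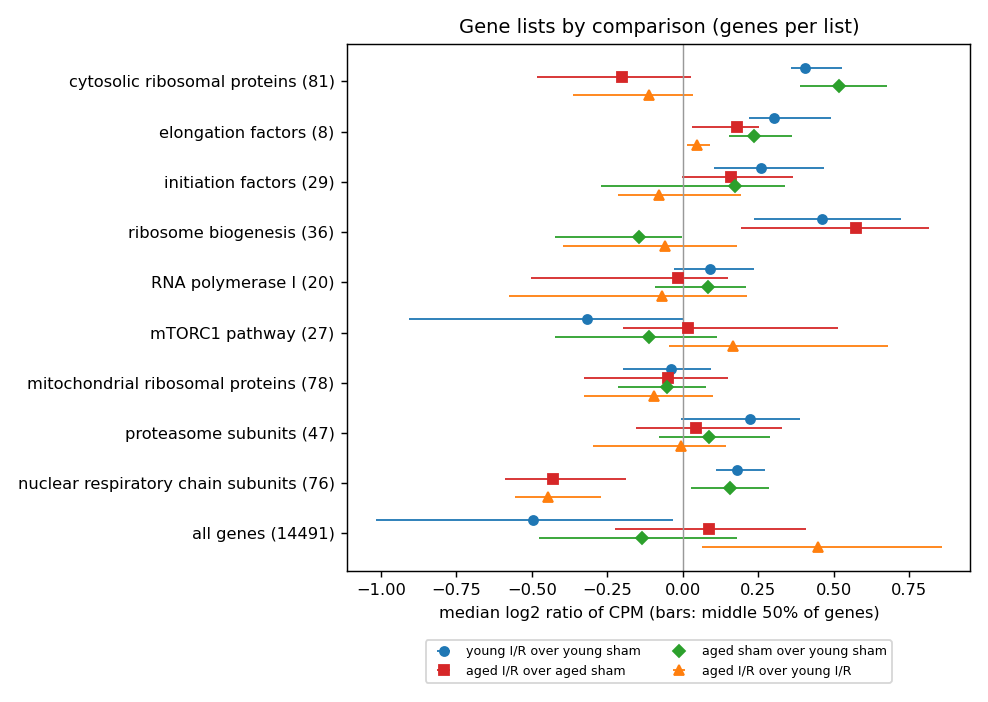
Median log2 ratio of CPM per gene list (points) with the middle 50% of its genes (bars), for 4 comparisons, with the number of genes in brackets. The ribosomal proteins lie at 0.41 for young I/R and -0.20 for aged I/R, whereas ribosome biogenesis lies above 0 in both and all genes lie at -0.50 and 0.09 (-0.01 and -0.01 with size factors). The 24 ribosomal members of 600 coding bases and over, not drawn apart, had a median of 0.11 for aged I/R.

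Other large complexes of housekeeping function were compared in the same way. The 78 mitochondrial ribosomal proteins had medians of -0.04 for I/R in young, which became 0.45 with size factors, and -0.05 in aged. The 47 proteasome subunits had medians of 0.22 in young and 0.04 in aged, or 0.71 and -0.06 with size factors. The respiratory chain subunits had medians of 0.18 and -0.43, or 0.67 and -0.53 with size factors. Coding length went with the ratio of aged I/R over aged sham in these families as well, with Spearman values of 0.51, 0.53 and 0.53. Over 13216 protein-coding genes the value was 0.25, and each was below the 0.77 of the cytosolic ribosomal proteins. Over protein-coding genes the relation was found in the other comparisons too. It was -0.28 for young I/R over young sham, -0.31 for aged sham over young sham and 0.31 for aged I/R over young I/R. Whether these values differ was not tested.

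Barcodes with at least 200 detected genes (241086 in all) were clustered without the ribosomal protein genes to see whether the family's order held within parts of the tissue. Of 10 clusters, 5 were named from marker genes, as endothelial-like, macrophage-like, mural-like and, for a pair of clusters, erythroid-like. The others stayed unnamed. No doublets were removed. The family was measured at 25798, 30767, 32940.2 and 29924 CPM in endothelial-like, 21007, 30086.5 and, in aged, 32016 and 27329 CPM in macrophage-like, 22562, 29931, 32493 and 27625 CPM in mural-like and 22920.4, 30069.6, 33077 and 27591 CPM in erythroid-like barcodes. Counting the erythroid-like pair as 1, the family was higher after I/R in young and lower after I/R in aged in 9 of 9 groups of barcodes. The size differed between groups, with log2 values of 0.25 to 0.98 in young and -0.30 to -0.14 in aged. The lowest levels were in a cluster led by Mhrt and Dmd (12592, 24914, 26321 and 21513 CPM), which also had the 0.98. It held 6963 of 26140 clustered barcodes in young sham and 6267 of 56835 in young I/R. In the aged it held 8816 of 68121 after sham and 11643 of 89990 after I/R. The part of this uneven share was not tested. In 9 of 9 groups, members under 450 coding bases were lower in aged I/R than in aged sham (-0.58 to -0.42) and those of 600 bases and over higher (0.12 to 0.30).

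The groups of barcodes cannot be read as separate cell types for these genes. Cardiomyocyte markers took 91081 to 127949 CPM in each group and library, so RNA from cardiomyocytes was present in all of them. Rpl3l, made in striated muscle, had 119.4 to 254.3 CPM in each group, and was no lower in endothelial-like barcodes (216.5, 145.5, 129.9 and 167.2 CPM) than in the cluster led by Mhrt (164.7, 127.7, 121.4 and 119.4 CPM). Free RNA can add to all groups of barcodes, but its amount was not measured and its part in the values per group was not tested.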

How the data were processed

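The authors dissociated left ventricles, prepared 10x Chromium 3′ libraries and ran Cell Ranger 6.0.2 (version from the submitters' processing notes) with the mm10 reference. The deposited matrices hold raw UMI counts per gene and barcode, with no scaling by the authors. Whether antisense or intronic reads were counted is not given in the sources used here. The members, gene lists and tests were chosen with earlier results of these data known. Groups came from the sample labels.

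UMIs were summed over all barcodes of a library and scaled to CPM. A ratio of sums has an exact conditional 95% interval, a level an exact Poisson one, both for counting error only. A gene was called past a fold of 1.5. All genes with at least 100 UMIs (14491) served as background. Named genes were a list of paralogs and members with known roles fixed by hand, the 3 highest and 3 lowest by mean CPM, the 3 highest and 3 lowest ratios per comparison, and the 5 other genes with at least 1000 UMIs nearest to the members' median profile. Any other gene was chosen after its values were seen, and some genes that met the rule are not reported here. Lengths and coordinates came from GENCODE M21 (GRCm38), start sites from RefSeq. Shared sequence was counted as 31-base words of the last 300 bases found in another gene of the feature table.

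For clusters, barcodes with at least 200 genes were scaled to 10000 UMIs, and 2000 variable genes without the members, 10 principal components, 20 neighbours and Leiden resolution 1 were used (scanpy 1.11.5, igraph 0.11.9, scikit-learn 1.9.0). A name needed 3 markers at 1.5-fold and 1 among the 10 leading genes. Other steps used Python 3.11.15, numpy 2.4.6, scipy 1.17.1, pandas 2.3.3 and matplotlib 3.10.9, and the ratio and its interval were tested on simulated counts. Alternatives were other scalings, barcode minimums, weights, folds and member sets, and other cluster settings. With 1 library per condition no statistical test across libraries was possible. The authors' own cell names and other assays were not used.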

Additional observations from a re-analysis of the deposited data

Results flagged for a closer look

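In the members below, the I/R library lay above sham at one age and below it at the other, each beyond counting error. The value is the log2 difference of I/R over sham in aged minus that in young. With 1 library per condition the difference between the ages was not tested. The summed CPM of the members gave -0.69. Only members from the named genes are listed, and others had values as large, among them Rpl36 (-1.27), Rpl35a (-1.27), Rpl30 (-1.19) and Rpl37 (-1.13). The largest listed values were those of Rplp1 (-1.49), Rps15a (-1.47), Rpl37a (-1.47), Rpl41 (-1.41), Rpl38 (-1.37), Rps27l (-1.37), Rpl39 (-1.25), Rps27a (-1.17), Rps19 (-1.04), Rps27 (-1.04) and Rps20 (-1.01). Smaller ones were found for Rplp2 (-0.98), Rpl13a (-0.89), Rpl11 (-0.89), Rpl22l1 (-0.63), Rps4x (-0.62), Rps29 (-0.58), Rpl22 (-0.51) and Rpl10 (-0.46). Rpl3l alone had a value above 0 (0.42), being lower after I/R in young and higher in aged, and its young value changed sign with size factors. Rpl41, Rps27, Rpl10, Rps4x and Rplp2 share over 10% of their 3′ sequence with another gene.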

How the results depend on the processing

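No paired analysis was possible because each condition is 1 library, and for the same reason no library could be left out. Four-part values follow the order of I/R over sham in young, I/R over sham in aged, aged over young after sham and aged over young after I/R, on the log2 scale. The direction of the family's sum held in the 4 comparisons under every alternative run. With size factors the sums were 0.92, -0.36, 0.69 and -0.59, the medians 0.89 (young), 0.66 (sham) and -0.56 (I/R), and the aged minus young response -1.22. Past 1.5-fold, 80 members were then higher in young, 54 between shams and 0 between I/R, with 37 lower there. All genes shifted by 0.49, -0.10, 0.14 and -0.44 under this scaling. It turned Rpl3l in young (0.19), Rpl12 and Rpsa in aged (-0.059 and -0.057), Rps2 between shams (0.11), and between I/R Rpl3 (-0.13), Rpl7 (-0.25), Rplp0 (-0.074), Rps2 (-0.13), Rps4x (-0.31), Rps6 (-0.13) and Rpsa (-0.33). Without Gm42418 the sums were 0.57, -0.26, 0.59 and -0.24, the medians 0.54 (young) and -0.21 (I/R), with 32 higher in young and 0 between I/R. Rps2 turned (0.0070). Without Malat1 and the mitochondrial transcripts too, the sums were 0.58, -0.35, 0.62 and -0.30, the medians 0.55, 0.59 (sham) and -0.27, and the response -0.87, with 33 higher in young, 0 higher and 16 lower between I/R. Rpl12 (-0.049) and Rpsa (-0.047) turned in aged, Rps2 (0.041) between shams, and Rps4x (-0.031) and Rpsa (-0.048) between I/R. With barcodes of at least 200 genes the sums were 0.61, -0.24, 0.70 and -0.15, the medians 0.58 (young) and 0.68 (sham), with 39 and 53 higher there, and Rps2 turned (0.080). With at least 500 UMIs the sums were 0.83, -0.16, 0.90 and -0.084, the medians 0.80 (young) and 0.89 (sham), and the response -0.94. Higher were 79, 6, 74 and 2, and lower 10 in aged and 5 between I/R. Rpl10 in aged (0.028) and Rps2 between shams (0.23) turned. Barcodes weighted equally gave sums of 0.38, -0.26, 0.51 and -0.13 and a median of 0.36 in young. A lower fold limit (0.32 on the log2 scale) gave 67, 8, 68 and 6 higher and 32 (aged), 1 (sham) and 23 (I/R) lower. A fold of 2 gave 1, 0, 0 and 0 higher and 0 lower in aged and between I/R. Without the paralogs the sums were 0.44 in young and 0.55 between shams. Without members that share over 10% of their 3′ sequence, an alternative added after the data were seen, they were -0.24 in aged and -0.13 between I/R. The cause of these shifts was not tested, beyond the scaling's own construction. Counts past a fold under an alternative stand without the share of all genes past it.

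Other cluster settings changed the family's CPM within named clusters beyond counting error. At Leiden resolution 2, in young (sham, I/R) and aged (sham, I/R), it was 23124, 30292, 32454 and 28399.5 in endothelial-like, 20049.6, 29849, 31647 and 26882 in macrophage-like and 20594, 29554, 32086 and 27050.3 in mural-like barcodes. With the ribosomal protein genes kept for clustering it was 21817, 29369, 31847 and 27246 in endothelial-like barcodes. It was then 20509 in macrophage-like and 20931 in mural-like barcodes of young sham, and 32165 and 27763 in mural-like ones of the aged. With 20 principal components it was 20611 (young sham) and 27655 (aged I/R) in macrophage-like barcodes. Rpl7l1, the lowest member, had 27.1 CPM or more in each library. The single library per condition leaves each comparison without a replicate check.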

Other observations

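Among 9828 other genes with at least 1000 UMIs, the 5 whose levels over the 4 libraries lay nearest to the median profile of the members were Sept9, Pcna, Hprt, Oat and Mcfd2, with root mean square distances of 0.0079, 0.015, 0.022, 0.023 and 0.027 on the centred log2 scale. Oat, ornithine aminotransferase of the mitochondrial matrix, was measured at 63.1 and 82.3 CPM in the young (sham, I/R) and 87.0 and 73.7 CPM in the aged, an order kept here. Hprt, the purine salvage enzyme often used as a reference gene, had 21.9, 29.4, 31.2 and 27.7 CPM. Pcna, the DNA polymerase clamp, had 14.9, 19.7, 20.8 and 17.7 CPM. A likeness over 4 libraries among so many genes is a description only. The member nearest to the family's median was Rpl21, at 0.018, with 272.2, 355.3, 382.5 and 333.2 CPM.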
